A study of Homo sapiens with 2 samples.

Results

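The EGR, NR4A and IER genes, with ARC, are 10 genes that are switched on within minutes of a growth signal, and they were followed here in thyroid carcinoma cells depleted of the phosphate exporter XPR1. The members were EGR1, EGR2, EGR3, NR4A1, NR4A2, NR4A3, IER2, IER3, IER5 and ARC, taken by name from the 58884 genes of the deposited table, in which all 10 were found. The cells were TPC-1, a human papillary thyroid carcinoma line in which a CCDC6-RET fusion drives signalling to ERK. One library came from TPC-1 cells transfected with an siRNA targeting XPR1, and the other from TPC-1 cells transfected with a control siRNA. How long after transfection the RNA was taken is not given in the labels, nor how many siRNAs were used. With 1 library per group, no difference can be set against a spread between replicates, and no p-value is given. Levels are in TPM, a share of each library's transcripts that is corrected for gene length and sums to 1000000. "Lower" and "higher" describe these 2 libraries, and all intervals are 95% intervals that cover counting error only.

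Immediate early genes need no new protein to be transcribed: the factors that act on them, such as SRF with its ERK-phosphorylated ELK partners, and CREB, are already in the nucleus. EGR1 to EGR3 encode zinc finger transcription factors that bind GC-rich DNA, and the NR4A genes encode orphan nuclear receptors whose activity is set mainly by how much of the protein is made. IER2, IER3 and IER5 are small genes named for their rapid induction, and ARC is best known as an activity-induced gene of neurons. Their mRNAs are short-lived, so that the level at any time follows recent transcription.

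Where the SRF and CREB sites lie in the members' promoters is shown first, because these sites are the textbook route from ERK and cyclic AMP signals to such genes. RefSeq windows (GRCh38.p14) were used for 6 of the 10 members, with 9 transcription starts in all, and the 250 bases before each start were searched on both strands. The sequences below are read 5′ to 3′ towards the start, and capitals mark CArG boxes, the sites of SRF, and the CRE core TGACG, the first bases of the CREB site TGACGTCA. For EGR2, which has 3 starts, the window shown is the one of the 3 that held a CArG box.
EGR1, chr5:138465229-138465478, plus strand: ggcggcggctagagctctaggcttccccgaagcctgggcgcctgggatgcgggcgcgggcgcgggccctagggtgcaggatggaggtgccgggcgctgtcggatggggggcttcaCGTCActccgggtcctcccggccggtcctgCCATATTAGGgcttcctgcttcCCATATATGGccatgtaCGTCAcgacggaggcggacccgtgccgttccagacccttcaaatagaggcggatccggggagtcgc
EGR2, chr10:62816367-62816616, minus strand: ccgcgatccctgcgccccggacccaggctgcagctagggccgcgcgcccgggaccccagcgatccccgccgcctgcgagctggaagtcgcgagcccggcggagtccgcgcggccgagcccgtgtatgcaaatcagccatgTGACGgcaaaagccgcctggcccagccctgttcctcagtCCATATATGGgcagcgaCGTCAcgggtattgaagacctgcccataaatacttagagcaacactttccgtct
NR4A3, chr9:99821635-99821884, plus strand: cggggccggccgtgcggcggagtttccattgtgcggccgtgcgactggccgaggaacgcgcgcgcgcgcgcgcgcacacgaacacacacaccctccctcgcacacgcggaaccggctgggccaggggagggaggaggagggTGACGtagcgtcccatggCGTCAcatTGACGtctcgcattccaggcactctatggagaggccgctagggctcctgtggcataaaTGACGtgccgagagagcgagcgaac
IER2, chr19:13150161-13150410, plus strand: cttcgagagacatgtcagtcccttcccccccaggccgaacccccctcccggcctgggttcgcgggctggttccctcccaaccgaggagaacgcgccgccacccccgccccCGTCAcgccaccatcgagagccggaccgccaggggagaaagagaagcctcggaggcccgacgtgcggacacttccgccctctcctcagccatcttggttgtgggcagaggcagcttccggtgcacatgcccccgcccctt

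EGR1 held a pair of CArG boxes, from base -105 to -96 and from -83 to -74 before its start, and EGR2 held one, from -71 to -62. A CArG box was found in 1.16% of the 35116 RefSeq windows of this length that were at hand. CRE cores flanked the CArG boxes of both genes, 2 in each window. NR4A3 had no CArG box in its window and 4 CRE cores, and IER2 had 1 CRE core. The CRE core is common, at 21.2% of all windows. No member window held the full palindromic CRE, TGACGTCA, which was in 1.65% of all windows and contains the CRE core. IER2 also had 3 GC boxes (GGGCGG, in 42.6% of windows) and an ETS site (CCGGAAG, in 8.52%). Most of the IER2 window also lies within STX10, a gene on the minus strand that spans bases 13144058 to 13150383. The windows of NR4A1 and IER5, and those of the other EGR2 starts, held no CArG box and no CRE core. No window of a member held an EGR site (GCGTGGGCG, 0.72% of windows), an NBRE, the NR4A site (AAAGGTCA, 1.05%), an AP-1 site (TGACTCA, 4.2%), a kB site (5.21%) or a heat shock element (TTCNNGAA, 6.62%). These matches describe letters in these windows and not binding.

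**Figure D1:**
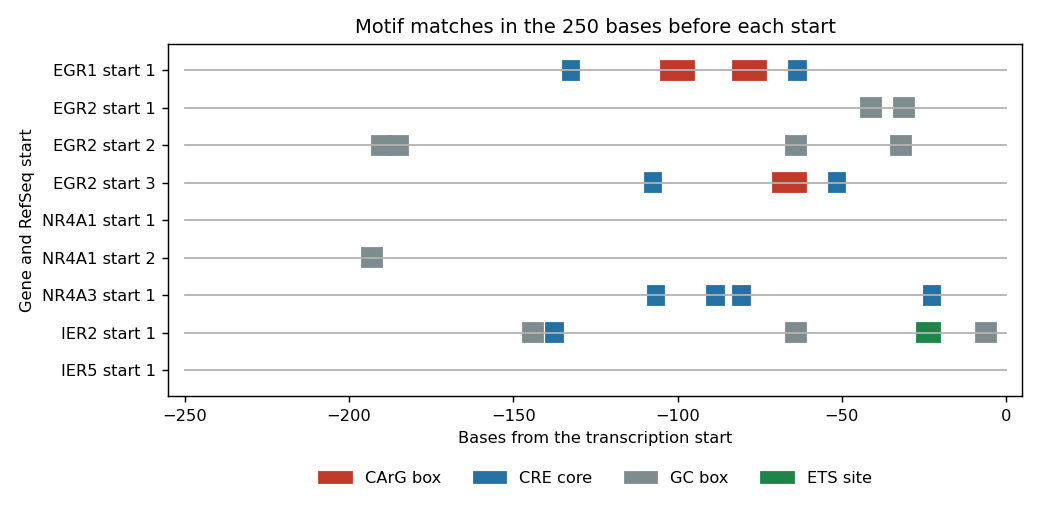
Each line is the 250 bases before 1 RefSeq transcription start of a member, with bases from the start on the x axis, and each coloured block is a motif match on either strand. CArG boxes are seen before EGR1 and before start 3 of EGR2, and CRE cores before EGR1, start 3 of EGR2, NR4A3 and IER2.

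The siRNA target itself was lower: XPR1 was 5.31 TPM in the XPR1-siRNA library and 39.2 TPM in the control library, which leaves 13.5% of the control level (11.6% to 15.7%). About 15090000 counted reads lay behind the XPR1-siRNA library and 15710000 behind the control library. The thyroid factor PAX8 was 408.6 TPM after XPR1 siRNA and 588.1 TPM in control, and keratins KRT8 and KRT18 were also present. In all, 6 of 13 thyroid and epithelial markers reached a mean of 1 TPM, and for 4 of the 6 the counting interval of the ratio lay below equality. The lowest was KRT7, at 3.39 TPM after XPR1 siRNA and 11.1 TPM in control, 3.27-fold lower (2.41 to 4.50). The thyroid markers NKX2-1, SLC5A5 and TSHR and the epithelial marker EPCAM were at 0 in both. Of 6 leukocyte markers none reached 1 TPM, with a summed level of 0.826 TPM after XPR1 siRNA and 0.457 TPM in control. Of the endothelial markers 1 of 5 reached it, and they summed to 1.08 TPM after XPR1 siRNA and 2.36 TPM in control. Of the fibroblast markers 1 of 6 did, and they summed to 7.85 TPM after XPR1 siRNA and 1.52 TPM in control, most of it COL1A1, and the part of these levels in the members' differences was not tested.

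All 10 members had a lower value in the XPR1-siRNA library than in the control library. Summed over the members, the level was 425.6 TPM after XPR1 siRNA and 1247 TPM in control, 34.1% of control. In bulk RNA, fewer cells that express a gene and less of its RNA per cell cannot be told apart. The difference was taken as log2(TPM + 1) in the XPR1-siRNA library minus that in control, a scale that understates the difference of genes near or below 1 TPM. On it, 7 of the 10 members were at least 2-fold lower and 0 at least 2-fold higher. Genes whose mean over the libraries reached 1 TPM are called expressed below. Of all 16319 expressed genes, 8.57% were at least 2-fold lower and 10.4% at least 2-fold higher, and of the 11698 protein-coding ones 4.57% were lower and 8.75% higher. The members were chosen with earlier results of these data known, so their contrast with all genes is not independent of these data. The median difference over the 10 members was -1.40, beside 0.05 over all expressed genes and 0.10 over the protein-coding ones. EGR3 and ARC had means below 1 TPM. EGR2, NR4A2 and NR4A3 reached that mean only through the control library. With a pseudocount of 5 in place of 1, the number of members at least 2-fold lower was 4, namely EGR1, NR4A3, IER2 and IER3.

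**Figure D2:**
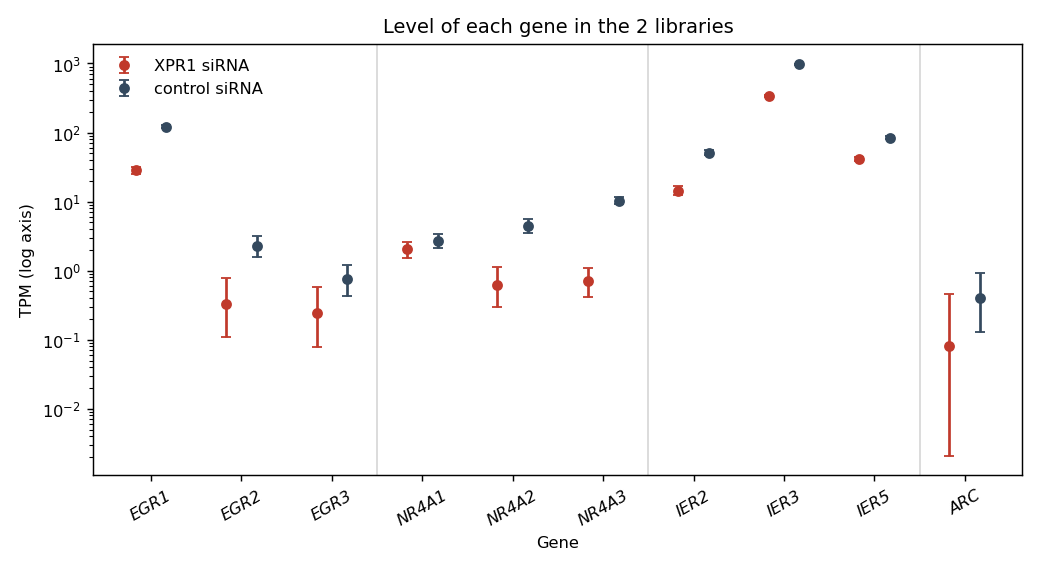
TPM of each member on a log axis in the XPR1-siRNA library (red) and the control library (dark), with exact Poisson 95% intervals for the reads behind each point. Each member's red point lies below its dark point, and the paired intervals overlap for EGR3, NR4A1 and ARC.

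Reads behind the deposited TPM could be recovered as whole numbers for all 10 members, and for 96.4% of expressed genes. They show how unequal the depth behind the members is. IER3 rested on 1850 reads in the XPR1-siRNA library and 5527 in control, and ARC on 1 read in the XPR1-siRNA library and 5 in control. The interval of the ratio lay below equality for 8 members and included equality for NR4A1 and ARC. Among all expressed genes it lay below equality for 24.7%, and among protein-coding ones for 29.6%.

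EGR1, the member of its family that most growth factors induce, was 28.3 TPM in the XPR1-siRNA library and 120.6 TPM in the control library. This is 4.25-fold lower (3.79 to 4.78), a difference of -2.05, from 361 reads after XPR1 siRNA and 1596 in control. The gene (ENSG00000120738, chromosome 5, 138465490 to 138469315, plus strand, GRCh38 as for all positions here) has 2 exons. Its difference took place 113 from the lowest among the 11698 expressed protein-coding genes.

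EGR2, which in Schwann cells is needed for myelin formation, was 0.334 TPM after XPR1 siRNA and 2.25 TPM in control. That is 6.73-fold lower, but 5 reads after XPR1 siRNA and 35 in control leave an interval of 2.63 to 22.0. EGR2 (ENSG00000122877) is on chromosome 10, minus strand, from base 62811996 to 62919900. EGR3 (ENSG00000179388, chromosome 8, minus strand), a close relative of EGR1 known from muscle spindles and lymphocytes, was 0.245 TPM after XPR1 siRNA and 0.753 TPM in control, from 5 reads after XPR1 siRNA and 16 in control. Its ratio was 3.08-fold lower (1.08 to 10.8) and its difference only -0.49, since both values lie below the pseudocount. In both libraries EGR1 made up nearly all of the summed EGR level, 98.0% after XPR1 siRNA and 97.6% in control. EGR4, the remaining gene of the family, had no read in either library, which allows up to 0.311 TPM after XPR1 siRNA and 0.299 TPM in control.

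The EGR proteins are held back by the corepressors NAB1 and NAB2, and NAB2 is itself induced by EGR proteins. NAB1 was 33.6 TPM in the XPR1-siRNA library and 50.5 TPM in the control library, a ratio of 0.666 (0.603 to 0.735). NAB2 was 12.8 TPM in the XPR1-siRNA library and 20.3 TPM in the control library, a ratio of 0.632 (0.512 to 0.778). Both lie on the lower side like EGR1, with differences of -0.57 and -0.62, less than 2-fold.

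Within the NR4A family the members differed widely. NR4A3, also called NOR1, was 0.702 TPM after XPR1 siRNA and 10.3 TPM in control, 14.7-fold lower (9.13 to 25.2), from 18 reads after XPR1 siRNA and 275 in control. It had the lowest ratio of all members, and its difference of -2.73 took place 44 from the lowest among expressed protein-coding genes. NR4A2, also called NURR1 and required for midbrain dopamine neurons, was 0.622 TPM after XPR1 siRNA and 4.42 TPM in control, 7.12-fold lower (3.66 to 15.5). NR4A3 (ENSG00000119508) is on chromosome 9, plus strand, at 99821855 to 99866891, and NR4A2 (ENSG00000153234) on chromosome 2, minus strand, at 156324432 to 156342348. NR4A1, also called NUR77, was 2.03 TPM after XPR1 siRNA and 2.70 TPM in control, 1.33-fold lower with an interval that includes equality (0.943 to 1.89), from 60 reads after XPR1 siRNA and 83 in control. The interval of the NR4A1 ratio, 0.530 to 1.06, did not overlap that of NR4A2, 0.0647 to 0.273, nor that of NR4A3, 0.0397 to 0.110.

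The order of the 3 receptors was therefore not the same in the libraries. NR4A1 held 60.5% of the summed NR4A level in the XPR1-siRNA library and 15.5% in the control library. NR4A3 held 21.0% after XPR1 siRNA and 59.2% in control. The summed NR4A level was 3.35 TPM after XPR1 siRNA and 17.4 TPM in control, so the family was low beside EGR1 or IER3 in both libraries. Of the retinoid X receptors, partners with which NR4A1 and NR4A2 can pair, RXRA was 22.1 TPM after XPR1 siRNA and 16.6 TPM in control. RXRB was 36.8 TPM after XPR1 siRNA and 45.3 TPM in control, and RXRG had no read in either. NR4A1 (ENSG00000123358, chromosome 12, 52022832 to 52059507) spans 22 annotated transcripts and shares 754 exonic bases with an antisense gene, NR4A1AS. The antisense gene had 0 reads after XPR1 siRNA and 3 in control. The library kit does not mark strand, so reads from a stretch shared with an antisense gene cannot be assigned to either gene, here and for EGR3, IER2 and IER3. ENSG00000253125, on the other strand, shares 164 exonic bases with EGR3 and was 0.337 TPM after XPR1 siRNA and 0.541 TPM in control, near the level of EGR3 itself.

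**Figure D3:**
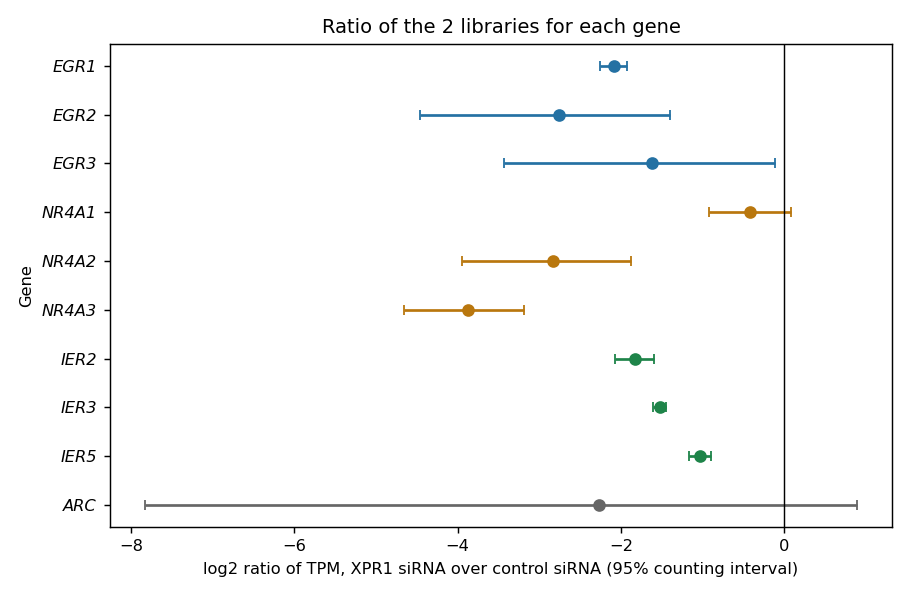
Log2 ratio of TPM for each member, XPR1 siRNA over control siRNA, with 95% Clopper-Pearson counting intervals from the recovered reads and 1 colour per family. All points lie left of 0, and the intervals of NR4A1 and ARC cross it.

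The 3 IER genes carried most of the members' RNA and were each at least 2-fold lower. IER3, also called IEX-1, an NF-kB- and ERK-induced gene that modulates apoptosis, was 337.5 TPM in the XPR1-siRNA library and 970.2 TPM in the control library, 2.87-fold lower (2.73 to 3.03). It was the most abundant member in both, with 79.3% of the members' summed level after XPR1 siRNA and 77.8% in control. IER3 (ENSG00000137331, chromosome 6, 30743199 to 30744554, minus strand) is a gene of 1356 bases, of which 359 are also exonic in IER3-AS1 on the other strand, which had 0 reads after XPR1 siRNA and 2 in control. FLOT1, the neighbour of IER3 on the same strand, was 91.9 TPM after XPR1 siRNA and 96.5 TPM in control, a ratio of 0.952 (0.879 to 1.03).

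IER2, a nuclear protein rapidly induced by serum, was 14.4 TPM in the XPR1-siRNA library and 51.1 TPM in the control library, 3.55-fold lower (3.01 to 4.21). IER2 (ENSG00000160888) occupies bases 13150415 to 13154908 of chromosome 19, plus strand. It shares 946 exonic bases with ENSG00000267598 on the other strand, which is listed at 0 in both libraries. The syntaxin gene STX10, which is transcribed in the opposite direction from next to the start of IER2, was 44.7 TPM after XPR1 siRNA and 24.1 TPM in control, 1.85-fold higher (1.54 to 2.23). The neighbours on this stretch of chromosome thus lay on opposite sides of equality.

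IER5, which binds the phosphatase PP2A and promotes activity of the heat shock factor HSF1, was 41.3 TPM in the XPR1-siRNA library and 84.2 TPM in the control library. That is 2.04-fold lower (1.86 to 2.23), and its difference of -1.01 lies just past the 2-fold mark. IER5 (ENSG00000162783, chromosome 1, 181088712 to 181092899, plus strand) is a single-exon gene and had the smallest fold of the members after that of NR4A1. It stood above EGR1 in the XPR1-siRNA library and below it in control. Of 14 listed HSF1 target genes, 13 were expressed, and of these 5 were at least 2-fold higher after XPR1 siRNA and 0 at least 2-fold lower. Their median difference was 0.66, beside 0.10 over expressed protein-coding genes, of which 8.75% were higher and 4.57% lower. The list was chosen with earlier results of these data known, and the part of IER5 in these levels was not tested. HSPB1, a small heat shock protein, was 390.0 TPM after XPR1 siRNA and 120.9 TPM in control.

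ARC (ENSG00000198576, chromosome 8, minus strand), a gene whose protein remodels synapses and can form virus-like capsids, was barely detected, at 0.0823 TPM after XPR1 siRNA and 0.396 TPM in control. Its ratio of 0.208 has an interval of 0.00440 to 1.86, and no difference was detectable at this depth.

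Ranked by level, the XPR1-siRNA library ran IER3, IER5, EGR1, IER2, NR4A1, NR4A3, NR4A2, EGR2, EGR3 and ARC. From NR4A3 downward each Poisson interval overlaps the next there, so the intervals alone do not resolve the order of the 5 lowest members. The control library ran IER3, EGR1, IER5, IER2, NR4A3, NR4A2, NR4A1, EGR2, EGR3 and ARC. In it the intervals overlap between NR4A1 and EGR2 and between EGR3 and ARC, so the intervals alone do not resolve the order within these pairs.

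**Figure D4:**
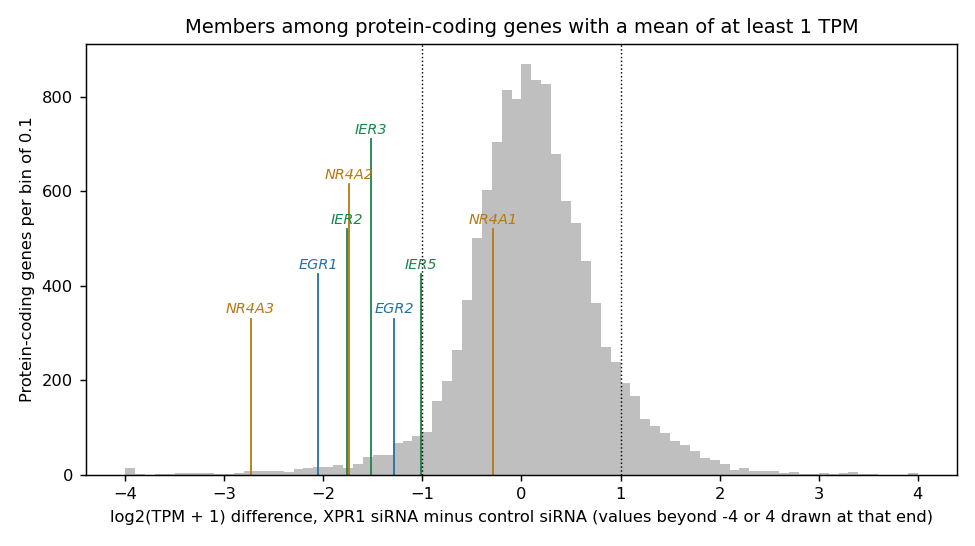
Grey bars count expressed protein-coding genes (mean of 1 TPM or more) by their log2(TPM + 1) difference, XPR1 siRNA minus control siRNA, and lines mark the 8 members that reach this mean. Of these, 7 lie beyond the dotted line at -1, where 4.57% of these genes lie, and NR4A1 lies within the bulk. EGR2, NR4A2 and NR4A3 reach this mean only through the control library, which favours a lower call for them.

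Short, compact genes are common in this group. Of the members, 6 span under 6000 bases, against 9.75% of expressed protein-coding genes, and the median span is 5.07 kb for the members and 33.6 kb for those genes. Another known feature is the AU-rich element, through which the mRNA is marked for rapid decay. The heptamer TATTTAT was searched in the 3′ untranslated region of 1 GENCODE 29 transcript per gene. It was found in 4 of the 10 members, IER3 and IER5 with 4 copies each, NR4A3 with 2 and NR4A2 with 1, and in 33.3% of expressed protein-coding genes, so the members' share is near the background. The copy nearest the stop codon of each is printed below as DNA, in capitals, to show the bases around it.
IER3: ctcctaattaaTATTTATatgtatttatg
IER5: ccataataatgTATTTATagaattaaaca
NR4A3: agctttgcctgTATTTATtgcaagaccac
NR4A2: tattttgtgccTATTTATgaataaatatt

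All 4 members with the heptamer were at least 2-fold lower, from NR4A3, the lowest member, with 2 copies to IER5, with 4 copies and the smallest of these folds. Of the 6 members without it, EGR1, EGR2 and IER2 were at least 2-fold lower and EGR3, NR4A1 and ARC were not. These counts follow the pseudocount of 1. With one of 0.1, EGR3 and ARC also passed, at -1.31 and -1.44. With one of 5, EGR2, NR4A2 and IER5 no longer passed, at -0.44, -0.75 and -0.95. Of expressed protein-coding genes with 1 or more heptamers 5.89% were at least 2-fold lower, and of those with none 3.92%. EGR1 had a single ATTTA pentamer, and IER2 had neither motif. The part of mRNA decay in these differences was not tested. In IER3 the pentamer was densest, at 8.14 per kb, against a median of 1.67 over expressed protein-coding genes.

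Genes for factors and kinases known to act on immediate early genes were mostly closer to equality than the members. Over all expressed protein-coding genes, 4.57% were at least 2-fold lower and 8.75% at least 2-fold higher. Low counts in the short lists that follow are near those shares. Of 6 genes for SRF, its ternary complex partners and its MRTF coactivators, none was 2-fold apart, with a median difference of 0.16. SRF was 42.8 TPM after XPR1 siRNA and 66.6 TPM in control, and ELK3 was 170.5 TPM after XPR1 siRNA and 330.3 TPM in control. ELK4, MRTFA and MRTFB were 1.47-fold, 1.38-fold and 1.68-fold higher. ELK1 was 39.1 TPM after XPR1 siRNA and 42.2 TPM in control. Of 8 CREB factors and coactivators, none was 2-fold apart, with a median of -0.38. CREM, whose locus also makes an inducible repressor, was the lowest, at 12.1 TPM after XPR1 siRNA and 23.0 TPM in control, and CREB1 was 20.3 TPM after XPR1 siRNA and 23.4 TPM in control. Of 16 genes from RAS to ERK and its kinases, 1 was at least 2-fold higher, MAPK3, which encodes ERK1, at 83.4 TPM after XPR1 siRNA and 39.4 TPM in control. MAP2K1, which encodes MEK1, was 1.85-fold lower (1.69 to 2.03). The median over those 16 was 0.08, and upper-quartile scaling turned it to -0.0042. These are transcript levels and say nothing of phosphorylation.

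Other immediate early genes, 39 of 40 of which were expressed, lay on both sides. Of these, 20 were at least 2-fold lower and 3 at least 2-fold higher, with a median difference of -1.01. The shares over expressed protein-coding genes were 4.57% lower and 8.75% higher. This list, like the other gene lists, was chosen with earlier results of these data known. The lowest were PPP1R15A, FOSB, SGK1 and PHLDA1, at differences of -3.01, -2.74, -2.71 and -2.51, which frame the -2.73 of NR4A3. The highest were BTG2, ID1, PLK2 and RHOB, at 1.72, 1.23, 1.02 and 0.79. No member of the EGR, NR4A or IER families lay on that side.

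Genes often given as direct targets of EGR1 or EGR2 lay mostly on the lower side. Of 18 that were expressed, 5 were at least 2-fold lower and 2 at least 2-fold higher, with a median of -0.61. The counting interval of the ratio lay below equality for 13 of them and above it for 2. Of expressed protein-coding genes, 4.57% were at least 2-fold lower, 8.75% at least 2-fold higher, and 29.6% had an interval below equality. The list was chosen with earlier results of these data known, so its direction is not independent of them. Tissue factor, F3, was 8.71 TPM after XPR1 siRNA and 40.9 TPM in control, and ICAM1, an adhesion molecule, was 30.8 TPM after XPR1 siRNA and 127.3 TPM in control. GADD45A and CD44 were 3.54-fold and 3.23-fold lower. On the other side, the matrix protein THBS1 was 16.9-fold higher and the heparanase gene HPSE 3.07-fold higher. Of 16 genes given as NR4A targets, most of them steroidogenic or dopaminergic, only 6 reached 1 TPM, and 2 of these, SPP1 and E2F1, were at least 2-fold higher.

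**Figure D5:**
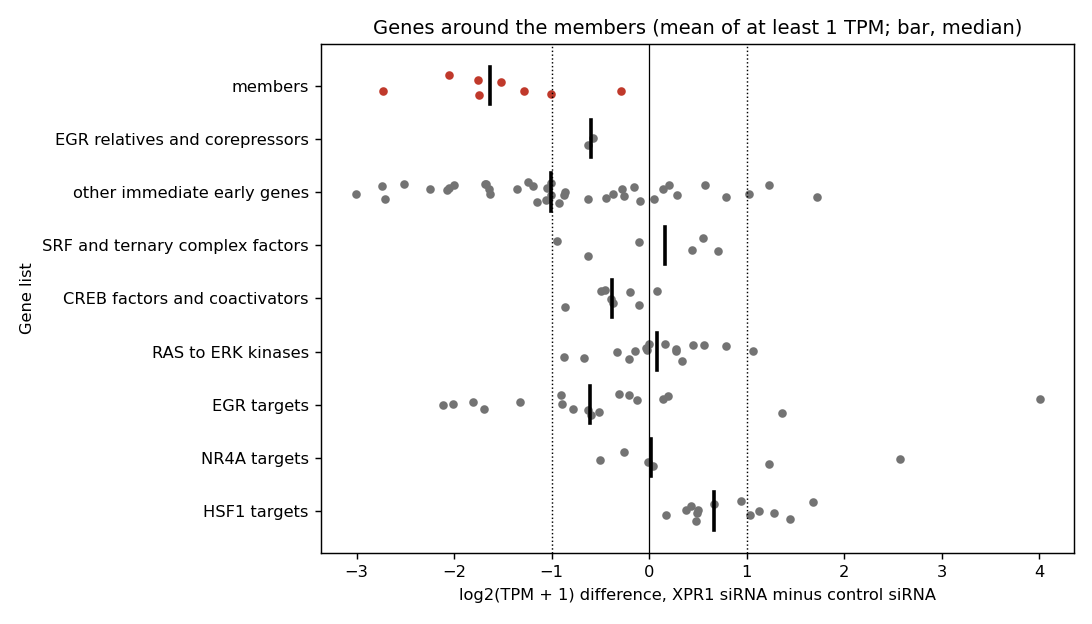
Log2(TPM + 1) difference, XPR1 siRNA minus control siRNA, of each expressed gene, by list, with the median as a bar. The members (red) have a median of -1.63 in this plot, which leaves out EGR3 and ARC, and the kinases and SRF factors scatter around 0. EGR2, NR4A2 and NR4A3 are in the plot only through the control library.

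Among the protein-coding genes nearest to EGR1, by distance of log2(TPM + 1) over the 2 libraries, were BTG1, ICAM1 and ITGA2. BTG1, an antiproliferative gene, was 26.5 TPM after XPR1 siRNA and 126.0 TPM in control, at a distance of 0.112. With 2 libraries, nearness means only a like level in each.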

How the data were processed

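RNA of TPC-1 cells was sequenced in 2 libraries, 1 per group, from TruSeq RNA Library Prep Kit v2, per the labels' protocols. The authors deposited TPM values for 58884 Ensembl genes, and each library sums to 1000000. Trimmomatic 0.38, featureCounts 2.0.0, FastQC, MultiQC and the build GRCh38 are named in the submitters' processing notes. An aligner or annotation release is not named in those notes. Symbols came from a table of gene identifiers that matched 58472 of them, and structure from GENCODE 29 on GRCh38.

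TPM times gene length is a whole multiple of 1 constant per library. A length within 10% of that in GENCODE 29 at which both libraries gave whole reads (tolerance 0.002) was sought, which recovered reads for 15738 of 16319 expressed genes (mean of 1 TPM or more). Lengths so found differed from GENCODE 29 for 6 of the 10 members. In a gene of 2000 bases 1 read was worth 0.123 TPM after XPR1 siRNA and 0.118 TPM in control. Ratio intervals are Clopper-Pearson (scipy 1.17.1). The reads carry no molecular identifiers and may repeat molecules, so intervals can be too narrow.

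Differences are of log2(TPM + 1), and a gene was counted at 2-fold or more. Alternatives were pseudocounts of 0.1 and 5, median-of-ratios and upper-quartile scaling, a fold of 1.5, the members with a mean of at least 1 TPM, recovered reads scaled by their total, and for all genes other floors or protein-coding genes only. The members and gene lists were chosen with earlier results of these data known. Named from each list were the 4 highest and 4 lowest differences from a mean of 5 TPM, or fewer, plus all EGR and NAB genes, SRF and CREB factors, XPR1 and the 4 genes nearest to EGR1, of which 1 is not reported here. STX10, FLOT1 and the antisense genes were named as neighbours within 2000 bases. RXRG, COL1A1, and EPCAM and other markers at 0, were named after their values were seen. The method was tested on simulated reads.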

Additional observations from a re-analysis of the deposited data

How the results depend on the processing

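The difference of each of the 10 members stayed below 0 under both other pseudocounts, both scalings and the recovered reads. The number of members at least 2-fold lower was 4 with a pseudocount of 5 and within 1.5 times of 7 under the other alternatives, and 0 members were at least 2-fold higher under any. The median of the members was -1.67 with a pseudocount of 0.1, -0.85 with one of 5, and -1.63 over the 8 members with a mean of at least 1 TPM. Low members follow the pseudocount by its construction: NR4A3 ranged from -3.70 to -1.43 and EGR2 from -2.44 to -0.44, while EGR1 ranged only from -2.14 to -1.91. Upper-quartile scaling gave the CREB list a median of -0.47 and the RAS to ERK list -0.0042, and shifts every log2 ratio down by 0.09. Among protein-coding genes only, 4.57% were at least 2-fold lower. No paired analysis was possible because there is a single library per condition, so leaving one out leaves no comparison. Depth limits EGR2, EGR3 and ARC most, with 5, 5 and 1 reads after XPR1 siRNA.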

Other observations

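Features of the members' sequences can be set beside all expressed protein-coding genes, members included, as a description across genes, which are not independent replicates. Of 144 genes with a CArG box in a 250-base window, 14 were at least 2-fold lower (9.72%), against 4.13% of 9435 genes with a window and no CArG box, but their median differences were 0.07 with the box and 0.09 without. With an AP-1 site 9.61% of 406 genes were at least 2-fold lower, against 3.98% of 9173 without. Their median differences were 0.087 with the site and 0.094 without. For the CRE core the shares were 3.95% with it and 4.37% without. For the NBRE, the NR4A site, 1 of 94 genes with it was at least 2-fold lower (1.06%), against 4.25% of 9485 without. The ETS site ran the same way, with 2.49% of 1849 genes with it and 4.63% of 7730 without. For the kB site the shares with and without were 5.76% and 4.08%, and for the full CRE 2.69% and 4.27%. They were 3.75% and 5.67% for the GC box, 3.38% and 4.23% for the EGR site, and 3.04% and 4.31% for the heat shock element.

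Genes with 3 or more TATTTAT heptamers in the 3′ untranslated region were at least 2-fold lower in 62 of 729 cases, those with 1 in 5.05% of 2276, and those with none in 3.92% of 7785. Their untranslated regions differ in length, with medians of 4474 bases for 3 or more heptamers and 713 bases for none, and the part of length in these shares was not tested.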
